A study of Mus musculus with 11 samples.

Results

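The mesothelium is the single sheet of flattened cells that lines the pleural, pericardial and peritoneal cavities and covers the organs within them. It derives from mesoderm but keeps epithelial features, among them keratins and an apical coat of glycoproteins, and in the embryo it includes the epicardium, which can give rise to fibroblasts and smooth muscle. The 9 genes described here are used as markers of this layer: the transcription factors Wt1, Tcf21 and Bnc1, the cell surface proteins Msln, Muc16, Lrrn4 and Pkhd1l1, and the uroplakins Upk1b and Upk3b, membrane proteins first described in the bladder lining. They were selected because they were far higher in mouse embryonic fibroblasts (MEFs) labelled Atxn7l3-/- than in wild-type (WT) MEFs, so their levels in MEFs are given as a description without a test. All 9 were found by gene name among the 31518 genes of the mouse embryonic stem cell (mESC) table and again among the 29450 genes of the MEF table.

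Atxn7l3 encodes the adaptor of the modules that remove ubiquitin from histone H2B, and the null allele, built from a KOMP construct, was carried in all tissues of the homozygous mutants. WT and Atxn7l3-/- embryos came from intercrosses of heterozygotes on a mixed DBA/2 and C57BL/6 background. The mESC lines were each derived from 1 blastocyst and, per the labels, kept on feeder cells in early passages and then without them, in medium with LIF and 2 kinase inhibitors (2i), giving 2 WT and 3 Atxn7l3-/- libraries. The MEFs were grown from embryos at E10.5, after the head and the gastrointestinal tract had been removed, with 3 libraries per genotype and no sorting, so a culture could hold any cell of the trunk that attached. Polyadenylated RNA was sequenced, and each library held between 34515342 and 49602605 counts.

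The targeted gene was read first. Atxn7l3 was at 222 and 223 CPM (counts scaled to the library size) in the WT mESCs and at 3.91, 1.79 and 0.976 CPM in the 3 libraries labelled Atxn7l3-/-, a log2 fold change of -6.65 (SE 0.53, adjusted p = 0.0211, edgeR quasi-likelihood fit, Benjamini-Hochberg over all genes). In MEFs it stood at 79.7, 104 and 92.9 CPM in the WT libraries and still at 49.2, 49.5 and 67.3 CPM in those labelled Atxn7l3-/-, so the groups did not overlap but the mean was still 0.599 of that in WT. That MEF difference did not pass the test (log2 fold change -0.74, SE 0.21, adjusted p = 0.0715), and the counts do not show which exons the remaining reads came from. The MEF genotype is therefore taken from the labels rather than from these counts. The paper genotyped the embryos used for MEFs from their yolk sacs. It reports undetectable ATXN7L3 protein and raised ubiquitin on histone H2B in its Atxn7l3-/- MEFs.

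For 3 of the 9 members, the 250 bases upstream of the start site in the RefSeq promoter table (GRCm38.p6) overlapped no exon of the member itself. Their sequences are shown. Each is written 5′ to 3′ on the strand of its gene, and capitals mark a match to GATAA or GGAATG, the core letters bound by GATA and TEAD factors, on either strand.
Upk3b, chr5:136038246-136038495, plus strand: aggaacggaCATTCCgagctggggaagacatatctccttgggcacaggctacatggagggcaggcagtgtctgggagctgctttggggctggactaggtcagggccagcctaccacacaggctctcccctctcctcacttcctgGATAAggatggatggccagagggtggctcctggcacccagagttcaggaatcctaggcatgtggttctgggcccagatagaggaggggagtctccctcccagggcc
Bnc1, chr7:81992300-81992549, minus strand: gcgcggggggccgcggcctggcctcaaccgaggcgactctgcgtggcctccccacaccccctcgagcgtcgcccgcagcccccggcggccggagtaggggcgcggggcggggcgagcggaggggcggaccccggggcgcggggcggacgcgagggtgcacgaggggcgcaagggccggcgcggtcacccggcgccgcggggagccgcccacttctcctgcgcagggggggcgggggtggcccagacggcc
Muc16, chr9:18674604-18674853, minus strand: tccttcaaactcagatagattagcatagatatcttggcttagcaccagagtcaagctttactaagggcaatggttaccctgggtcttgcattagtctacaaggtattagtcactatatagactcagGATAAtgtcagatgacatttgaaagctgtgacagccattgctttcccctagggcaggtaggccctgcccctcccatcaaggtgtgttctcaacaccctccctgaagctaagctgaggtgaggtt

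The 3 sequences were unlike in composition, with a GC content of 60.8% for Upk3b, 83.6% for Bnc1 and 46.4% for Muc16, against a median of 52% over all promoters in the table. The table held 5 of the 9 members, these 3 and also Lrrn4 and Tcf21. GATAA or its reverse complement TTATC was present in the window of Upk3b, Muc16 and Tcf21 and in 23% of the 27025 promoters searched. GGAATG or CATTCC was present for Lrrn4 and Upk3b and in 12.6% of all promoters. Neither the E-box CAGCTG (12.8% of all promoters), nor the WT1 core GTGGGAG or CTCCCAC (7.99%), nor TATAAA or TTTATA (13%) occurred in any of the 5. The Bnc1 window lies within the annotated pseudogene 4833418N17Rik (chr7:81992002-81992618), which had 1, 0 and 0 counts in the WT and 1, 4 and 2 counts in the Atxn7l3-/- MEFs.

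In the libraries labelled Atxn7l3-/-, the 9 genes together amounted to 9432, 8861 and 6539 CPM, against 18.9, 41.8 and 21.2 CPM in WT MEFs. They took 0.945%, 0.845% and 0.622% of all counts in those 3 libraries and at most 0.00435% in WT. For each of the 9 genes every Atxn7l3-/- library was above every WT library. Over all 15958 genes tested in MEFs, 20% showed that separation, 19.8% the opposite one, and 5.01% were called higher at an adjusted p of 0.05 or less, and since the members were chosen on this contrast nothing is read from their count. The smallest gap was that of Wt1, whose lowest Atxn7l3-/- library was 39.2 times its highest WT library, and the widest that of Pkhd1l1, at 326 times. In bulk RNA, more cells of a type and more RNA per cell cannot be told apart.

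**Figure D1:**
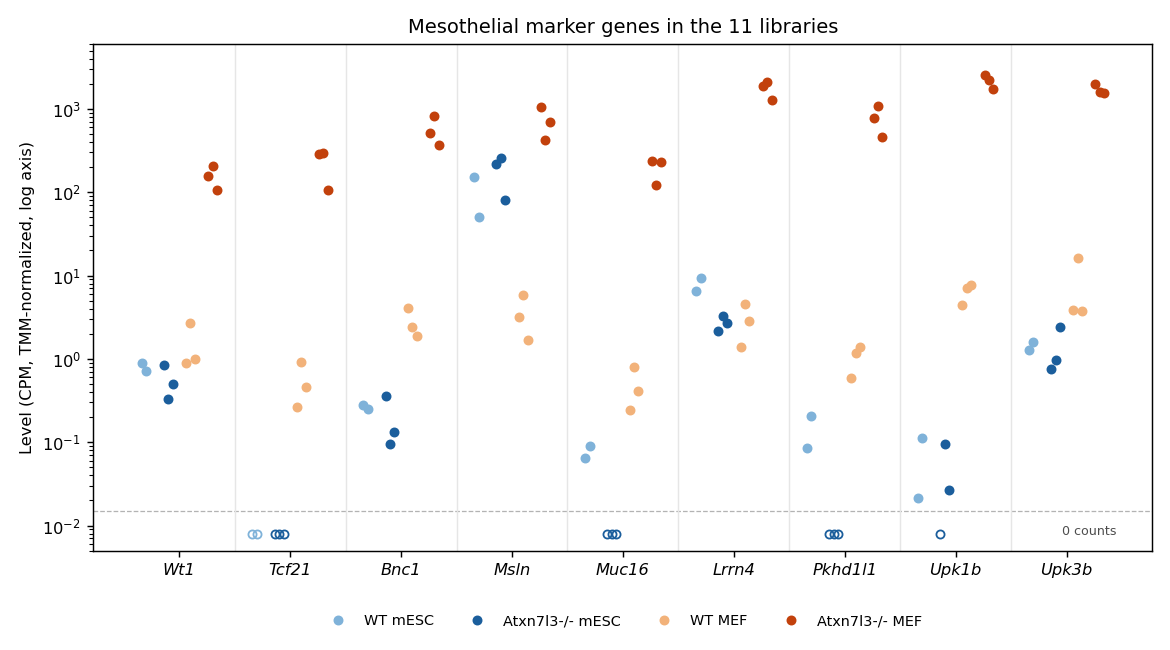
Level of each of the 9 genes in CPM (log axis) in the 11 libraries, 1 point per library, with open circles for 0 counts. In MEFs the 3 Atxn7l3-/- points of every gene lie above the 3 WT points, whereas in mESCs Msln alone exceeds 10 CPM and the genotypes mostly overlap.

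Among the transcription factors, Wt1, a zinc finger regulator of mesothelium, gonad and kidney (chr2:105126529-105173616, plus strand, mm10, 10 exons in its longest transcript), was at 0.882, 2.68 and 1.00 CPM in the WT MEFs and at 158, 208 and 105 CPM in those labelled Atxn7l3-/-. The second WT library was the highest of its group and the third Atxn7l3-/- library the lowest of its own. The log2 fold change was 6.70 (SE 0.60), a 103-fold ratio of the means, and it was 7.40 without the second WT library.

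Tcf21, a basic helix-loop-helix factor of the epicardium and of visceral mesenchyme (chr10:22817281-22820174, minus strand), was at 0.263, 0.920 and 0.458 CPM in WT and at 290, 292 and 105 CPM in Atxn7l3-/- MEFs. It had the widest spread within the Atxn7l3-/- group, 2.77-fold between the highest and the lowest library, with the first and second library close together and the third apart. Its log2 fold change was 8.73 (SE 0.73). The antisense gene AC153369.1 spans it (chr10:22815749-22823330) and had 5, 4 and 4 counts in WT and 154, 217 and 136 counts in Atxn7l3-/- MEFs. As the strand setting of the counting is not given in the sources used here, reads of the pair may have been shared.

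Bnc1, a zinc finger protein of basal and mesothelial cells (chr7:81966672-81992292, minus strand, 5 exons), was at 4.09, 2.40 and 1.90 CPM in WT and at 515, 831 and 373 CPM in Atxn7l3-/- MEFs. Unlike the other two factors it was highest in the first WT library. The log2 fold change was 7.67 (SE 0.54).

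Of the surface proteins, Msln, which encodes mesothelin, the glycosylphosphatidylinositol-anchored protein that binds MUC16 (chr17:25748614-25754327, minus strand, 16 exons), was at 3.13, 5.86 and 1.68 CPM in WT and at 1039.9, 427 and 702 CPM in Atxn7l3-/- MEFs. The second Atxn7l3-/- library, which was the highest for all 3 transcription factors, was the lowest for Msln. The log2 fold change was 7.67 (SE 0.68).

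Muc16, the large transmembrane mucin known as CA125 (chr9:18495455-18674530, minus strand, 78 exons), was at 0.244, 0.809 and 0.414 CPM in WT and at 239, 122 and 232 CPM in Atxn7l3-/- MEFs, a log2 fold change of 8.68 (SE 0.61). The second Atxn7l3-/- library was again the lowest, so mesothelin and its binding partner shared 1 order of the 3 libraries that no other member had.

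Lrrn4, a leucine-rich repeat membrane protein (chr2:132868305-132880891, minus strand, 5 exons), was at 1.37, 4.60 and 2.88 CPM in WT and at 1862, 2098 and 1286 CPM in Atxn7l3-/- MEFs, with a log2 fold change of 9.22 (SE 0.65). Pkhd1l1, a very large receptor-like protein related to fibrocystin (chr15:44457553-44601369, plus strand, 78 exons), was at 0.582, 1.17 and 1.40 CPM in WT and at 771, 1078 and 456 CPM in Atxn7l3-/- MEFs. Its log2 fold change of 9.52 (SE 0.61), a 732-fold ratio of the means, was the largest of the 9 members. In both genes the order of the Atxn7l3-/- libraries was that of the transcription factors.

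Of the uroplakins, Upk1b, a tetraspanin (chr16:38773184-38800203, minus strand, 8 exons), was at 4.39, 7.11 and 7.70 CPM in WT and at 2554, 2206 and 1709 CPM in Atxn7l3-/- MEFs, a log2 fold change of 8.40 (SE 0.44). It supplied 27.1%, 24.9% and 26.1% of the members' summed CPM in the 3 Atxn7l3-/- libraries. Upk3b, a single-pass uroplakin (chr5:136038496-136046487, plus strand, 6 exons), was at 3.90, 16.3 and 3.75 CPM in WT and at 2004, 1601 and 1570.4 CPM in Atxn7l3-/- MEFs. The second WT library held about 4.34 times the lowest one, the widest WT spread of the 9, while the Atxn7l3-/- libraries differed by no more than 1.28-fold. The log2 fold change of Upk3b was 7.76 (SE 0.80), and 8.84 without that WT library.

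**Figure D2:**
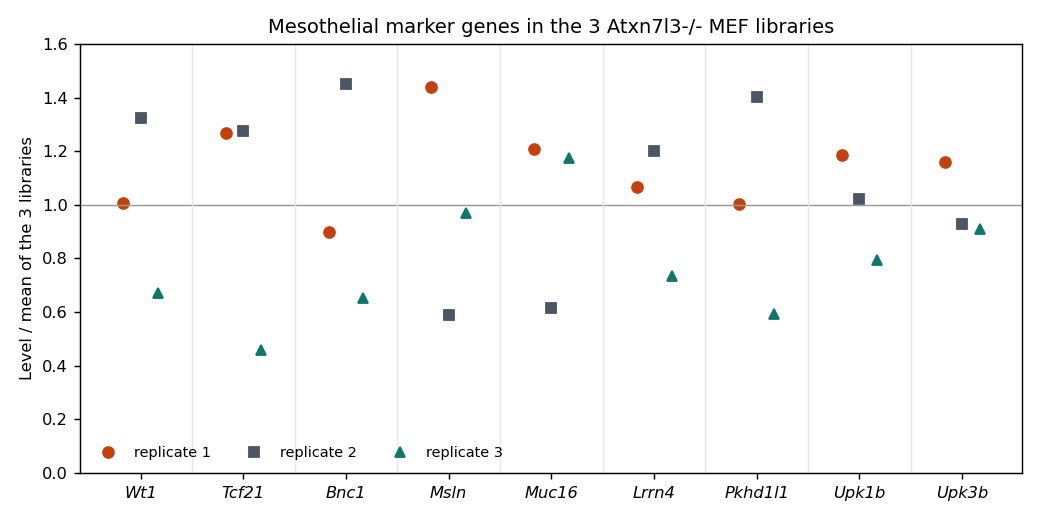
Level of each gene in each of the 3 Atxn7l3-/- MEF libraries, divided by the mean of the 3 libraries (line at 1). Msln and Muc16 are lowest in replicate 2, at 0.590 and 0.616 of their mean, and the other 7 genes are lowest in replicate 3.

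In WT MEFs, Wt1, Tcf21, Msln, Muc16, Lrrn4 and Upk3b, 6 of the 9, were highest in the second library, by 1.56 to 2.04 times their WT mean. All 9 nonetheless had counts in all 3 WT libraries and passed the filter on low counts there. Levels between genes can be compared only per length, and on the deposited scale of normalized reads per kilobase the order of medians in Atxn7l3-/- MEFs ran from Upk1b (53744) through Lrrn4 (21431), Upk3b (19544), Msln (13813), Tcf21 (8115), Bnc1 (4742), Wt1 (4338) and Pkhd1l1 (2586) to Muc16 (2194). Upk1b ranked 56th among all 29450 genes on that scale, and even Muc16 stood above 88.9% of them. In WT MEFs the same medians ranged from 3.86 for Pkhd1l1 to 169 for Upk1b. The Muc16 value rests on a table length of 4399.5 bases, while its longest annotated transcript has 25437.

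Whether these genes also depended on genotype in mESCs is a separate question that the selection did not use. In mESCs most members were barely detected: Tcf21 had 0 counts in all 5 libraries, Muc16 3 and 4 counts in WT and 0 in each Atxn7l3-/- library, and Upk1b 1 and 5 against 0, 4 and 1. Pkhd1l1 had 4 and 9 counts in WT and 0 in all 3 Atxn7l3-/- libraries, which is at least 1.80-fold lower against a floor of 3 counts per library. These 4 genes did not pass the filter on low counts. Of the other 5, none was called higher or lower in Atxn7l3-/- mESCs by edgeR's quasi-likelihood test (adjusted p of 0.05 or less), against 3.08% of the 17800 genes tested called higher and 3.88% called lower. At an unadjusted p under 0.05 the count was 1, Lrrn4, where 5309 of all 17800 genes passed in either direction. DESeq2 also called that 1 gene of the 5, and 3425 genes of the whole mESC table. The median log2 fold change of the 5 was -0.45, that of all genes tested 0.04.

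Msln was the exception in level. It stood at 151 and 50.6 CPM in WT and at 220, 260 and 80.9 CPM in Atxn7l3-/- mESCs, so that WT mESCs held more Msln than WT MEFs on each cell type's own CPM scale and the genotypes overlapped. The log2 fold change was 0.89 (SE 0.58, adjusted p = 0.332 by edgeR). Per kilobase its WT median of 1823 stood above 88% of the genes listed in mESCs.

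Lrrn4 went the other way from its course in MEFs. It was at 6.59 and 9.30 CPM in WT and at 2.17, 3.24 and 2.69 CPM in Atxn7l3-/- mESCs, and the groups did not overlap, as for 25.1% of all genes tested in that direction and 24.6% in the other. The log2 fold change of -1.56 (SE 0.40) just missed the threshold with edgeR (adjusted p = 0.0594) and passed it with DESeq2 (adjusted p = 4.17e-04), and over all alternatives its adjusted p ran up to 0.328. From the summed counts the ratio was 0.346 with an exact 95% interval of 0.302 to 0.396, which covers counting error only.

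The last 3 tested members overlapped between genotypes. Wt1 was at 0.902 and 0.724 CPM in WT and at 0.842, 0.334 and 0.501 CPM in Atxn7l3-/- mESCs (log2 fold change -0.55, SE 0.56, adjusted p = 0.547 by edgeR). Bnc1 was at 0.279 and 0.249 against 0.361, 0.0953 and 0.132 CPM (-0.45, SE 0.70, adjusted p = 0.697), and Upk3b at 1.27 and 1.58 against 0.752, 0.977 and 2.43 CPM (-0.04, SE 0.62, adjusted p = 0.972). The standard errors of 0.56 to 0.70 on the log2 scale are wide, and smaller changes in these 3 genes were not detectable with 2 WT libraries.

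Other genes known from mesothelium and epicardium, which were not members, were read in the same MEF contrast. This list was drawn up with earlier results of these data known, so its count is not independent evidence of its direction. Of 24 such genes 21 were tested, and 9 rose in Atxn7l3-/- MEFs, none fell and 12 did not pass (adjusted p of 0.05 or less), against a background of 5.01% higher and 4.39% lower over all genes. At an unadjusted p under 0.05, and by DESeq2, 15 were higher and again none lower, where 5166 of all 15958 genes passed the first and 3965 were called by the second, in either direction. Their median log2 fold change was 3.23, beside -0.06 over all genes tested, and in 13 of the 21 the groups did not overlap, with every Atxn7l3-/- library higher, as in 20% of all genes tested.

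The highest fold change was that of Dpp4, a cell surface peptidase, at 0.357, 1.03 and 0.305 CPM in WT and at 100.1, 266 and 78.6 CPM in Atxn7l3-/- MEFs (log2 fold change 8.06, SE 0.81, edgeR adjusted p = 0.00752). Cldn15, a claudin of tight junctions, was at 0.394, 0.976 and 0.763 CPM in WT and at 173, 225 and 106 CPM in Atxn7l3-/- MEFs (7.89, SE 0.52, adjusted p = 0.00249). Both were nearly silent in WT MEFs, as the members were. Rspo1, a secreted amplifier of Wnt signalling, rose from 0.864, 1.79 and 0.262 CPM to 80.4, 79.4 and 65.0 CPM (6.28, SE 0.70, adjusted p = 0.0094). Gpm6a, a membrane glycoprotein, was at 67.4, 5.75 and 11.1 CPM in WT and at 1881, 2726 and 961 CPM in Atxn7l3-/- MEFs (6.05, SE 1.12, adjusted p = 0.0284). Its first WT library was far above the other two, and its call was lost without the third WT library or without the first or the second Atxn7l3-/- library (adjusted p = 0.0842, 0.0711 and 0.0768).

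The remaining 5 that rose were Sema3d (log2 fold change 5.36), Aldh1a1 (3.97), Ezr (3.48), Tmem151a (3.28) and Tbx18 (3.13), named here after their values were seen. Of these only Tmem151a kept its call whichever library was left out, and all 4 others lost it without the third WT library (adjusted p of 0.0538 to 0.0828). Sema3d encodes a guidance semaphorin of the epicardium, Aldh1a1 an enzyme of retinoic acid synthesis, Ezr the cortical linker ezrin and Tbx18 an epicardial T-box factor. Not all of the list moved: Rarres2 had a log2 fold change of -1.55, Podxl of -1.05 and Anxa8 of -0.39, none past the threshold (the first of these turned to 0.83 without the second WT library and the next to 0.57 without the first), and Calb2, the gene of the widely used mesothelial marker calretinin, had 1 count each in a WT and an Atxn7l3-/- library and none in the other 4. With the replicate numbers as a block, 13 genes were called higher, adding C3, Pdpn, Efemp1 and Ildr2. The count was 4 without the third WT library and 5 without the first or without the second Atxn7l3-/- library.

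**Figure D3:**
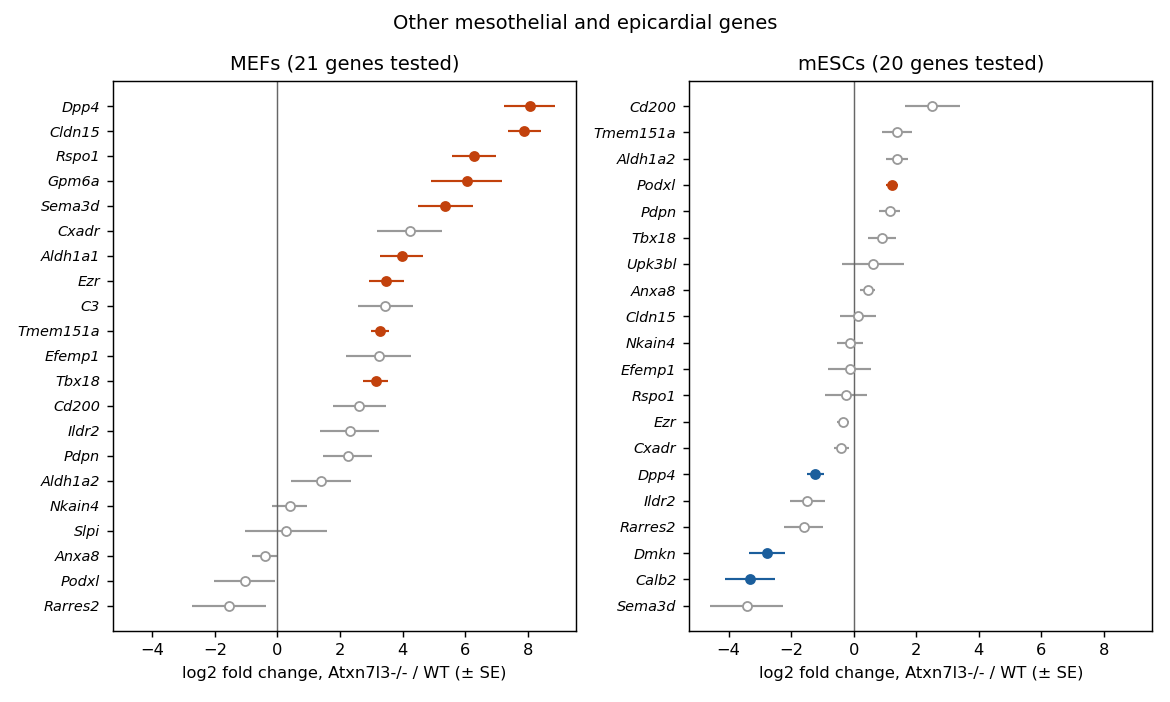
Log2 fold change (Atxn7l3-/- over WT, bars ± SE) of the other mesothelial and epicardial genes tested in MEFs (21) and in mESCs (20). Filled points have an adjusted p of 0.05 or less: 9 in MEFs, all higher in Atxn7l3-/-, and 4 in mESCs, of which 3 were lower.

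In mESCs the same list gave 1 higher and 3 lower of 20 tested, against 3.08% higher and 3.88% lower over all genes tested. Its median log2 fold change was -0.12. Podxl, which encodes the sialomucin podocalyxin, rose (1.23, SE 0.20, edgeR adjusted p = 0.0236). Dpp4 fell from 56.6 and 58.3 CPM to 31.2, 25.2 and 17.2 CPM (log2 fold change -1.23, SE 0.28, adjusted p = 0.0422), opposite to its direction in MEFs. Calb2 (-3.32, adjusted p = 0.0499) and Dmkn (-2.76, adjusted p = 0.036) also fell. No gene of the whole mESC table was called without the first or without the second WT library, and 3 were called without the first Atxn7l3-/- library, so none of these 4 calls held there. The 3 lower calls were also lost without the second Atxn7l3-/- library (adjusted p of 0.0543 to 0.0723).

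No tested family relative of the members was called higher in MEFs, and the list held no relative of Wt1, Tcf21 or Muc16. Against the same background of 5.01% higher and 4.39% lower, of the family relatives tested, 6 of 9, none rose (0 also at an unadjusted p under 0.05 and by DESeq2) and 1 fell by edgeR, with a median log2 fold change of -1.38. Lrrn1 was at -2.35, Bnc2 at -0.41, Upk1a at 0.41 and Pkhd1 at 0.85, none called, and Lrrn2 and Lrrn3 are given below. Lrrn3, a relative of Lrrn4, was at 29.6, 93.4 and 4.73 CPM in WT and at 1.15, 0.707 and 2.61 CPM in Atxn7l3-/- MEFs (log2 fold change -4.84, SE 1.13, edgeR adjusted p = 0.0467). It did not pass with the replicate block (adjusted p = 0.101) or when any library other than the third WT one was left out (adjusted p of 0.0546 to 0.148), and with the block Lrrn2 was called instead (log2 fold change -4.03 and adjusted p = 0.0648 without the block, 0.0249 with it). Upk1a, a relative of Upk1b, stayed low at 0.488, 0.363 and 0.698 CPM in WT and 0.577, 0.365 and 1.13 CPM in Atxn7l3-/- MEFs. In mESCs 1 of 8 relatives tested was called by edgeR, Lrrn2, which fell (log2 fold change -3.64, adjusted p = 0.0234). The background there was 3.08% higher and 3.88% lower.

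Markers of the other cells that a trunk culture could hold were read the same way. Of 6 simple epithelium genes tested in MEFs, 2 rose by edgeR and none fell (background 5.01% and 4.39%), the same counts as at an unadjusted p under 0.05 and by DESeq2. Krt7 was at 1.03, 3.26 and 1.88 CPM in WT and at 392, 514 and 174 CPM in Atxn7l3-/- MEFs (log2 fold change 7.46, SE 0.68, edgeR adjusted p = 0.0062), and Krt18 had a log2 fold change of 5.49 (SE 0.85, adjusted p = 0.0189). Both are keratins that mesothelium also makes, but the list's other simple keratins, which it also makes, did not pass: Krt19 had a log2 fold change of -0.37 (adjusted p = 0.73) and Krt8 of 2.80 (adjusted p = 0.208), at a mean of 6.88 and 1.35 CPM in Atxn7l3-/- MEFs. The Krt18 call was lost without the first or the third WT library or the first Atxn7l3-/- library (adjusted p = 0.0579, 0.0648 and 0.0567). The list summed to 10.46, 13.1 and 20.2 CPM in WT and to 436, 524 and 201 CPM in Atxn7l3-/- MEFs. Krt7 alone supplied most of the Atxn7l3-/- sums, with the 392, 514 and 174 CPM given above. Cdh1, Epcam, Cldn4, Cldn6, Cldn7 and Esrp1, which define most epithelia, were at a mean of 0.363 CPM or less each in Atxn7l3-/- MEFs.

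Among genes of the gonadal ridge and kidney, which also derive from the coelomic lining or lie beside it, 2 of 6 tested rose and 1 fell (background 5.01% and 4.39%). Gata4, a zinc finger factor of heart, gonad and coelomic epithelium, was at 0.976, 4.27 and 0.720 CPM in WT and at 86.1, 90.9 and 49.1 CPM in Atxn7l3-/- MEFs (log2 fold change 5.26, SE 0.79, adjusted p = 0.0177). Star, a cholesterol carrier of steroid-making cells, rose by less (2.90, SE 0.57, adjusted p = 0.0327), and the nephron progenitor factor Six2 fell (-7.44, SE 0.98, adjusted p = 0.0132). The Gata4 and Star calls were lost without the first or the third WT library or the first or the second Atxn7l3-/- library (adjusted p of 0.0504 to 0.0544 and of 0.0747 to 0.104), and that of Six2 without the third WT or the first Atxn7l3-/- library (0.0503 and 0.0564). The list summed to 32.6, 69.1 and 54.2 CPM in WT and to 182, 203 and 81.8 CPM in Atxn7l3-/- MEFs. Gata4 and Lhx9 supplied most of the Atxn7l3-/- sums. Lhx9 overlapped between genotypes and was not called by edgeR (log2 fold change 1.15, adjusted p = 0.308).

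Markers of fibroblasts, macrophages and endothelium gave no call in MEFs by edgeR's quasi-likelihood test with all libraries. Leaving out 1 library brought calls in at least 1 such fit. Col3a1, Dcn and Tek were then called higher (lowest adjusted p = 0.0316, 0.0262 and 0.0432). Prrx1, Postn and C1qa were called lower (lowest adjusted p = 0.0259, 0.0354 and 0.0232). At an unadjusted p under 0.05 the fibroblast list had 1 gene higher and 1 lower, the same counts as by DESeq2, the macrophage list 0 by either, and the endothelial list 2 lower, to which DESeq2 added 1 higher. All 12 fibroblast genes were tested, and their sum was 17156, 51952 and 28909 CPM in WT and 30696, 31400 and 46805 CPM in Atxn7l3-/- MEFs, and the sums overlapped between genotypes. Fn1, Col1a1, Col1a2 and Col3a1 carried most of that sum. Single genes of the list differed between the Atxn7l3-/- libraries. Prrx1, a homeobox factor of mesenchyme, was at 429, 511 and 433 CPM in WT and at 24.3, 5.497 and 312 CPM in Atxn7l3-/- MEFs (log2 fold change -2.004, edgeR adjusted p = 0.303). Pdgfrb, a growth factor receptor of mesenchyme and pericytes, was at 193, 428 and 317 CPM in WT and at 23.7, 1.82 and 255 CPM (-1.74, adjusted p = 0.409), and Postn at 370, 3911 and 472 CPM in WT and at 5.17, 2.17 and 160 CPM. The third Atxn7l3-/- library was thus the highest of its group for these 3 genes and, as given above, the lowest for 7 of the 9 members. The part of that difference in the members' levels was not tested. The largest differences there were those of Lum (log2 fold change -5.12, adjusted p = 0.202) and Postn (-4.83, adjusted p = 0.135), and the replicate block called Pdgfra and Dcn higher (adjusted p = 0.0276 and 0.0249). The 8 macrophage genes summed to 438, 481 and 215 CPM in WT and to 796, 226 and 132 CPM in Atxn7l3-/- MEFs, with C1qa at -1.47 and Cd68 at 0.92. The endothelial genes summed to 70.7, 5.75 and 16.1 CPM in WT and to 19.2, 9.67 and 3.16 CPM, with Cdh5 at -3.03 (adjusted p = 0.0594) and Kdr at -2.85 (adjusted p = 0.15, and 0.0274 with the replicate block). The simple epithelium sum, mostly Krt7, and the gonadal sum, mostly Gata4 and Lhx9, were higher in Atxn7l3-/- MEFs, as the members were. The part of these genes in the members' levels was not tested.

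**Figure D4:**
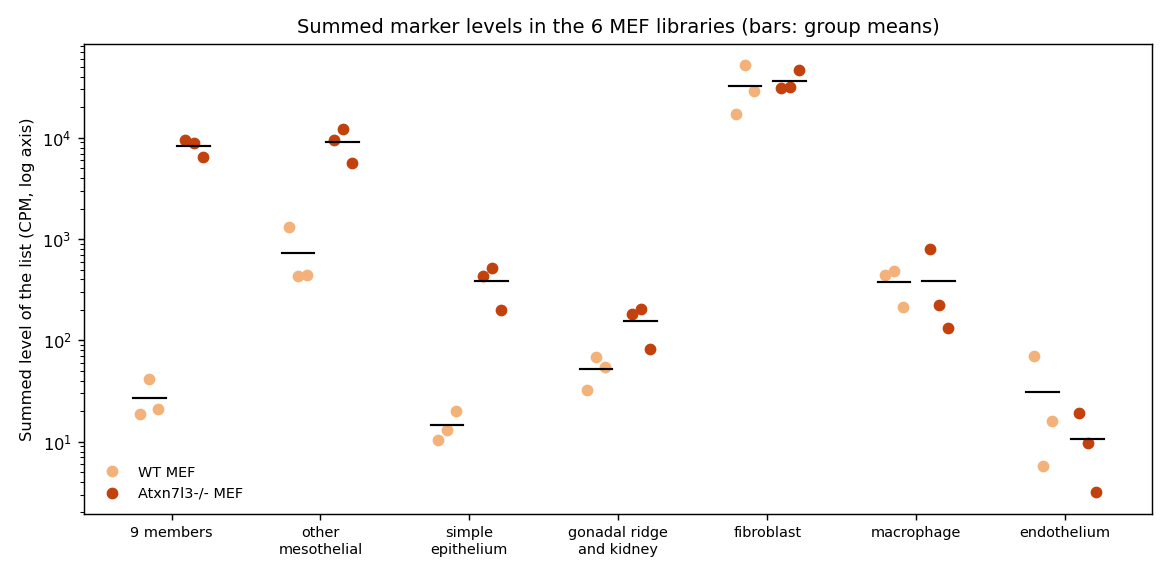
Summed CPM (log axis) of each marker list in the 6 MEF libraries, 1 point per library and a bar at each group mean. The sums of the 9 members, the other mesothelial genes, the simple epithelium genes and the gonadal ridge and kidney genes do not overlap between genotypes. The fibroblast, macrophage and endothelial sums do. In Atxn7l3-/- MEFs the simple epithelium sum is mostly Krt7, and the gonadal sum mostly Gata4 and Lhx9.

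In mESCs part of the fibroblast list moved with genotype, and the labels state that early passages were grown with feeder cells. Col1a1 (log2 fold change 2.54, adjusted p = 0.0469) and Postn (3.28, adjusted p = 0.042) rose by edgeR, 2 of 11 tested (background 3.08% higher and 3.88% lower). At an unadjusted p under 0.05, 8 were higher and 0 lower, where 5309 of all 17800 genes passed in either direction. DESeq2 called 5 higher and 0 lower, beside 3425 genes called in the whole mESC table. The median log2 fold change of the 11 was 2.54, that of all genes tested 0.04. The list summed to 1553 and 2642 CPM in WT and to 3546, 3644 and 6036 CPM in Atxn7l3-/- mESCs. Fn1 alone held 1524 and 2530 CPM in WT and 3217, 3190 and 5703 CPM in Atxn7l3-/- mESCs. Its difference was not called by edgeR (log2 fold change 0.99, adjusted p = 0.118). Pdgfra, Pdgfrb and Thy1 overlapped between genotypes (0.04, 0.13 and 0.37). In 8 genes every Atxn7l3-/- library was higher, as in 24.6% of all genes tested. The part of the list's transcripts in the mESC values of the members was not tested. Epcam rose (1.45, adjusted p = 0.0317), and Tie1 (-4.14, adjusted p = 0.0256), Pax8 (-4.46, adjusted p = 0.0442) and Nphs1 (-2.42, adjusted p = 0.0461) fell. Of 3 macrophage genes tested none was called by edgeR or DESeq2 and 1 had an unadjusted p under 0.05, with Csf1r at -1.87 and Cd68 at 1.12.

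Genes other than the members were ranked by how closely they followed the members over the 6 MEF libraries, as the Pearson correlation of log2 CPM with the members' mean standardized profile. The 5 closest of 13464 candidates were Plscr1 (r = 0.999), Cyp2s1 (0.999), Prr15 (0.998), Cldn15 (0.998) and Nod1 (0.997), and 398 candidates exceeded 0.95, since the 6 points fall into 2 genotypes. The members themselves ranged from 0.988 for Bnc1 to 0.999 for Lrrn4. The followers differed widely in level. Cyp2s1, a cytochrome P450, went from 0.319, 0.614 and 0.502 CPM in WT to 151, 182 and 105 CPM in Atxn7l3-/- MEFs, while Plscr1, a phospholipid scramblase, went from 9.78, 11.9 and 9.79 CPM to 32.8, 32.8 and 30.8 CPM. Over all 11 libraries Cldn15 alone stayed among the 5 closest.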

How the data were processed

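RNA from 5 mESC and 6 MEF libraries was sequenced after poly(A) selection with a strand-specific kit. Per the labels, reads were demultiplexed with bcl2fastq 2.17.1.14, trimmed with cutadapt 1.10, mapped to mm10 with STAR 2.5.3a and counted per gene with HTSeq 0.6.1p1, and the authors scaled libraries with DESeq2 1.16.1. The annotation and strand setting are not given in the sources used here. The authors deposited raw counts per gene (34515342 to 49602605 per library, so that 3 counts equal 0.0605 to 0.0869 CPM) and a normalized signal per kilobase of median transcript length. The latter served only to compare levels between genes. The deposited fold changes and p-values of the authors' own comparison were not used, nor was 1 column without a name. A WT mESC dataset that the authors excluded was not analysed here.

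Raw counts were analysed within each cell type with edgeR 4.0.16 in R 4.3.3 (filterByExpr, TMM, quasi-likelihood test, Benjamini-Hochberg over 17800 mESC and 15958 MEF genes, threshold 0.05). The code was also run on simulated counts that had the same variance setting for all genes and no replicate effect. That run does not show the error rate at the spread between these libraries. CPM are TMM-normalized within a cell type and not comparable in detail across them. Alternatives were RLE scaling, no filter, DESeq2 1.42.0, a replicate block and leaving out each library. Replicates were separate lines or embryos as far as the sources say. Same-numbered WT and Atxn7l3-/- MEFs deviated together (r = 0.473, 0.161 and 0.240 over genes), a hint of pairing that no label explains, whereas in mESCs they did not (0.00777 and -0.172). All values come from the fit without the block unless the block is named, and in MEFs the blocked value is printed where it changes a call.

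The members and lists were chosen with earlier results of these data known. Named genes are the 9 members, Atxn7l3, up to 4 called genes per list and direction with the largest fold change (or, where none was called, the 2 largest), the 5 genes most like the members among those with a mean of at least 1 CPM over the MEF libraries, and genes overlapping a member. Any other gene was named after its values were seen. Itgam had 2 rows in the MEF table, of which the one with the annotated identifier was used.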

Additional observations from a re-analysis of the deposited data

Results flagged for a closer look

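Of the genes named above, 9 lay above WT in every Atxn7l3-/- MEF library and below WT in every Atxn7l3-/- mESC library, and 2 the other way round, and the differences between the cell types were not tested. For Lrrn4 the log2 fold change was -1.56 between mESC genotypes and 9.22 between MEF genotypes, and for Dpp4 it was -1.23 and 8.06. Krt7 (-2.20 and 7.46), Krt18 (-1.92 and 5.49), Sema3d (-3.42 and 5.36) and Ezr (-0.34 and 3.48) also lay lower in mESCs and higher in MEFs, but none of these 4 was called in mESCs. Muc16 (8.68 in MEFs) and Pkhd1l1 (9.52 in MEFs) rested in mESCs on 7 and 13 counts summed over both WT libraries and 0 in the 3 Atxn7l3-/- libraries, and C3 (3.45 in MEFs) was too low to be tested in mESCs. Postn (3.28 in mESCs and -4.83 in MEFs) and Prrx1 (3.02 and -2.004) lay higher in mESCs and lower in MEFs. In either cell type 19.8% to 25.1% of all genes tested separated the groups in a given direction. The share with opposite separation in the 2 cell types was not computed, so nothing is read from the counts of 9 and 2. Cxadr of the other mesothelial list, not named above, also lay lower in mESCs and higher in MEFs (-0.39 and 4.22). No group had 4 or more libraries, so none was examined for a library far from the rest.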

How the results depend on the processing

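All 81 alternative values of the members' log2 fold changes in MEFs were positive, from 6.42 to 9.81. That sign follows from the selection on this contrast and is no independent check, and only the range is informative. Leaving out 1 library each gave 6.42 to 7.40 for Wt1, 8.39 to 9.33 for Tcf21, 7.32 to 8.06 for Bnc1, 7.33 to 8.26 for Msln, 8.35 to 9.25 for Muc16, 8.87 to 9.70 for Lrrn4, 9.20 to 9.81 for Pkhd1l1, 8.19 to 8.57 for Upk1b and 7.43 to 8.84 for Upk3b. The number of genes called in MEFs was 1501, with 3965 by DESeq2, 2232 with the replicate block, and 197 to 2038 when 1 library was left out. In mESCs it was 1238, with 2995 without the filter, 3425 by DESeq2, 1435 with the replicate block, and 0 to 2242 when 1 library was left out. The members called higher in mESCs numbered 1 with the replicate block (Msln, log2 fold change 1.45, adjusted p = 0.0459), and those called lower 2 without the filter (Lrrn4 and Pkhd1l1) and 1 by DESeq2 (Lrrn4). They stayed at 0 in each direction when 1 library was left out. The mESC replicate numbers share only a number, and a block there is no evidence of pairing. Of the other mesothelial genes, DESeq2 called 15 higher in MEFs, and 4 to 11 were called when 1 library was left out. In mESCs 4 were called higher without the filter, 5 by DESeq2, 3 with the replicate block and 0 to 3 with 1 library left out, and 0 to 3 were called lower with 1 library left out. The sign turned for several of the genes given above, and none of those listed here was called. In mESCs, Upk3b turned to 0.13 without the second WT library. It turned to 0.26 without the first and 0.16 without the second Atxn7l3-/- library, over a range of -0.71 to 0.26. With 1 mESC library left out, Pdgfra ran from -0.30 to 0.25 and Pdgfrb from -0.14 to 0.31. In MEFs the sign turned for Rarres2 (0.83 without the second WT library, over a range of -2.04 to 0.83) and Podxl (0.57 without the first, -1.70 to 0.57). It also turned there for Krt19 (0.41 without the third, -1.08 to 0.41) and Upk1a (-0.10 without the third Atxn7l3-/- library, -0.10 to 0.73). Lum in MEFs turned to 1.12 without the second WT library, over a range of -8.26 to 1.12. Over 11 libraries, 1 of the 5 genes most like the members was the same. Where a value moved, the cause was not tested. Depth limited Tcf21, Muc16, Pkhd1l1 and Upk1b in mESCs, where counts lay near the floor.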
